A study of Homo sapiens with 9 samples.

Results

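The comparison describes HEK293T cells collected directly after heating, and it rests on 4 of the 9 RNA-seq libraries of the series, which were chosen by their labels. The 2 H1 libraries came from cells held at 43 °C for 1 h in a water bath with no recovery, and the 2 NC libraries from untreated wild-type cells cultured at 37 °C. HEK293T is a human embryonic kidney line that carries the SV40 large T antigen, a protein that binds p53 and RB, so the values describe 1 transformed line. The other 5 libraries, from heated cells returned to 37 °C, entered only the shared estimate of the spread between libraries. Libraries were made from total RNA depleted of ribosomal RNA, and the deposited table held 3814195 and 4922367 counts in the NC libraries and 5642775 and 5730556 in the H1 libraries. Levels are given as counts scaled to 1000000 per library (CPM) after TMM scaling, as shares of a library, so that a change in total RNA per cell, or in the number of cells of a type, cannot be told apart from a change of a transcript. In all 4 libraries, transcripts of the leukocyte, endothelial and hepatocyte markers summed to 0.812 CPM or less per cell type. The keratin markers summed to 85.3 and 79.0 CPM in NC and to 74.4 and 77.2 CPM at H1. Both H1 sums were below both controls, but the groups overlapped for KRT8 and for KRT18, and KRT19 had no count. The part of this difference in other results was not tested. The neurofilament markers summed to between 141.6 and 149 CPM, the fibroblast markers to between 64.9 and 73.7 CPM and the adrenal markers to between 0.812 and 2.61 CPM, with overlapping groups. Of the 4 kidney lineage markers, LHX1 had no count and PAX8 at most 2. The summed level of 49.2 and 43.8 CPM in NC and 70.3 and 70.9 CPM at H1 came mostly from GATA3. PAX2 went the other way, from 13 and 14.6 CPM in NC to 11.4 and 11.9 CPM at H1.

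Heat above the growth temperature unfolds proteins and releases the transcription factor HSF1, which binds heat shock elements and switches on genes of chaperones, proteins that refold or hold others. The same insult activates stress kinases, and these act within minutes on transcription factors that are already present and start the immediate early genes, among them JUN, FOS, EGR1 and ATF3. Many immediate early transcripts, and many transcripts of the inhibitors that end signalling, carry signals for rapid decay. Their levels can therefore follow a change of synthesis or decay within an hour, whereas the levels of most housekeeping transcripts cannot.

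Of 17286 genes with enough counts to be tested, 741 (4.29%) were higher at H1 than in NC and 407 (2.35%) were lower, by edgeR's quasi-likelihood test at an adjusted p under 0.05. The median log2 fold change over all tested genes was -0.01. The genes that rose had a median log2 fold change of 1.01, and 371 of them differed by more than 2-fold. Those that fell had a median of -0.69, and 125 differed by more than 2-fold. Chaperones and co-chaperones made up 28 of the genes that rose (of 57 tested in that list, with none lower), and the other 713 are described here. With the leading chaperones the labels fit the libraries. DNAJB1, a co-chaperone of HSP70, was at 69.2 and 80.3 CPM in NC and at 1908 and 2073 CPM at H1, and HSPH1, an HSP110 chaperone, rose from 134 and 133 CPM to 1634 and 1785 CPM. Both groups had 2 libraries, which the labels do not tie to separate cultures, and p-values therefore measure the spread between these libraries, which may be technical. In the gene lists, wherever edgeR called none higher or none lower, DESeq2 also called none. With 1 library left out, between 370 and 536 genes were higher and between 150 and 254 lower.

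**Figure D1:**
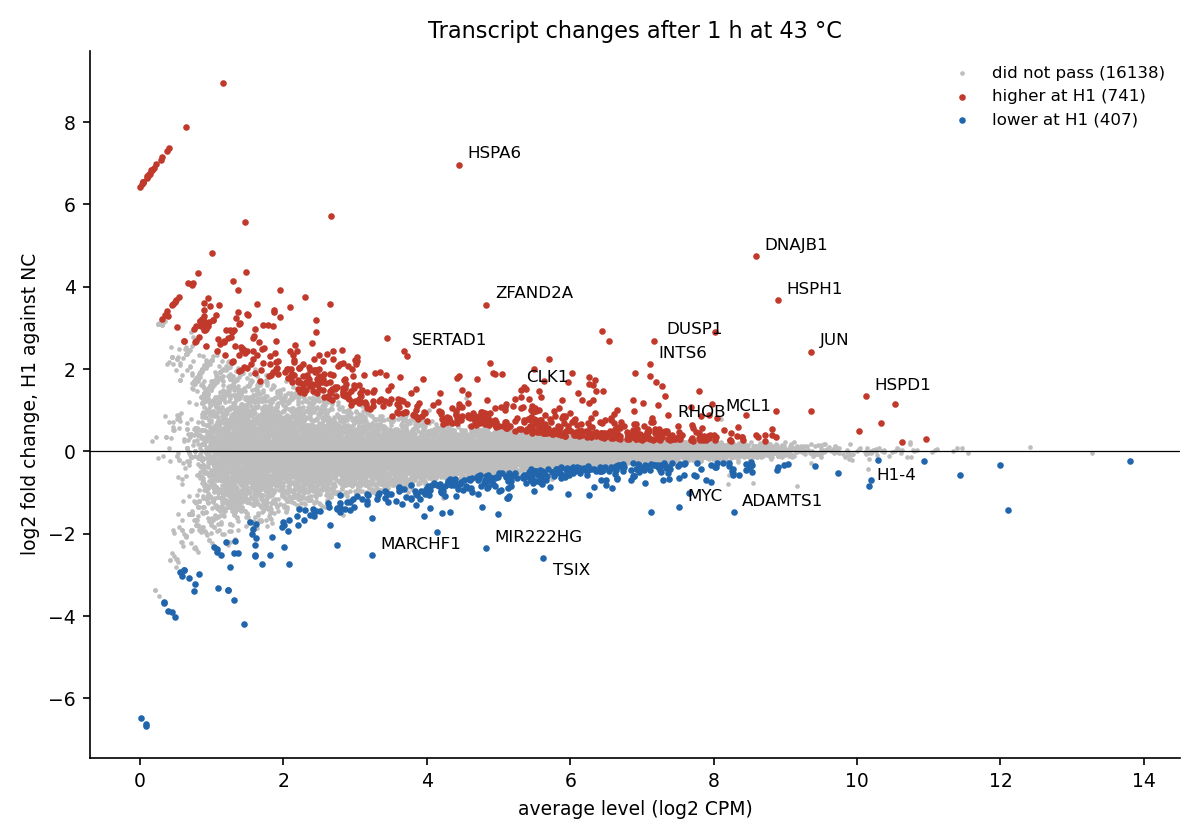
Log2 fold change at H1 against NC (vertical axis) by average level in log2 CPM (horizontal axis) for the 17286 genes tested, with 741 genes called higher in red and 407 called lower in blue. Several genes outside the chaperone list, among them JUN, DUSP1, INTS6 and ZFAND2A, stand among the largest rises at their level, and genes near the left edge rest on few counts.

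Outside the chaperone list, the 20 largest rises at a mean level of 3 or more in log2 CPM lay between 1.86 and 3.56 on the log2 scale, and all 20 kept their call in each alternative run at that threshold. The largest was ZFAND2A, an AN1 zinc finger protein that binds the proteasome under stress (chromosome 7, 1152071 to 1160759, minus strand, GRCh38). It was at 8.53 and 7.56 CPM in NC and at 88.5 and 103.5 CPM at H1 (log2 fold change 3.56, SE 0.20, adjusted p = 2.96e-13 from edgeR). DUSP1, a phosphatase that switches off MAP kinases, followed among the protein-coding genes, and the cell cycle coregulator SERTAD1 (2.43, SE 0.26) and JUN came next. INTS6, a subunit of the Integrator complex that cleaves nascent RNA, was at 67.0 and 64.7 CPM in NC and at 291 and 286 CPM at H1 (log2 fold change 2.13, SE 0.09, adjusted p = 7.43e-16 from edgeR). DEDD2, a death effector domain protein, rose by 2.24 (SE 0.17), PHLDA1, a pleckstrin homology-like protein, by 2.18 (SE 0.33) and GRHL1, a transcription factor of epithelia, by 1.89 (SE 0.20). IL12RB2, a subunit of the interleukin 12 receptor, was at 26.4 and 18.3 CPM in NC and at 84.6 and 95.9 CPM at H1 (1.99, SE 0.17). MVP, the major vault protein, rose from 5.28 and 4.69 CPM to 16.0 and 22.2 CPM (1.92, SE 0.28). The ranges of NC and H1 did not overlap for any of these genes, as the naming rule requires.

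Transcripts of immediate early transcription factors rose in nearly every case that passed the test. Of 33 tested genes in this list, 15 were higher and 1, MYC, was lower, against 4.29% and 2.35% of all genes, and the median log2 fold change was 0.88 against -0.01 over all genes. JUN, the central subunit of the AP-1 transcription factor (chromosome 1, 58776845 to 58784048, minus strand), was already abundant at 277 and 291 CPM in NC and stood at 1550 and 1498 CPM at H1. Its log2 fold change was 2.42 (SE 0.08, adjusted p = 1.67e-18 from edgeR). The AP-1 partners rose by less, FOSL2 by 1.78 (SE 0.23), FOS by 1.5 (SE 0.20) and JUND by 0.88 (SE 0.09). FOS was at 20.1 and 27.6 CPM in NC and at 76.7 and 56.8 CPM at H1, and the H1 libraries differed more from each other than those of JUN did. ATF3, a bZIP factor induced by many stresses, was at 42.9 and 40.7 CPM in NC and at 112 and 112 CPM at H1 (1.42, SE 0.13, adjusted p = 6.57e-09).

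Other members of the list rose together with AP-1. RHOB, an unstable small GTPase, went from 98.7 and 100.7 CPM to 254 and 252 CPM (1.34, SE 0.10), and IER5, an immediate early protein that acts on HSF1, from 75.1 and 76.7 CPM to 178 and 183 CPM (1.25, SE 0.10). The zinc finger factors KLF10 (1.31, SE 0.14), KLF6 (1.25, SE 0.11) and KLF11 (0.80, SE 0.15) were all higher, as was CSRNP1, a nuclear protein of the immediate early class, by 2.16 (SE 0.18). EGR1, the zinc finger factor by which serum stimulation is often followed, was at 18.7 and 29.7 CPM in NC and at 48.4 and 48.0 CPM at H1. Its call (1.01, SE 0.20, adjusted p = 0.0013 from edgeR) was lost without NC replicate 1 (0.71, adjusted p = 0.0708). With 1 library left out, 14 or 15 members of the list were higher and 1 was lower. The shares of the list called higher and lower are set beside those of the other lists and of all genes in the plot of calls by gene list.

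MYC, the growth-promoting transcription factor whose messenger RNA is among the shortest-lived known, moved against the other members of its list that passed. It was at 294 and 291 CPM in NC and at 111 and 117 CPM at H1, with both heated libraries far below both controls. The log2 fold change was -1.36 (SE 0.09, adjusted p = 7.49e-12 from edgeR), and the call held in all 16 alternatives that used the same threshold. The gene lies on chromosome 8 from 127735434 to 127742951 on the plus strand, and another annotated gene overlaps it on the minus strand. Counting used no strand, and reads where exons of both genes meet were left out. Reads counted for MYC could come from either strand.

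Of 29 tested genes of feedback inhibitors of MAP kinase, NF-kB and cytokine signalling, 10 were higher, 1 was lower and 18 did not pass. The shares higher and lower were 34.5% and 3.45%, against 4.29% and 2.35% of all genes. The median log2 fold change was 0.51. DUSP1 (chromosome 5, 172768096 to 172771195, minus strand) was at 57.7 and 54.8 CPM in NC and at 363 and 366 CPM at H1 (log2 fold change 2.69, SE 0.09, adjusted p = 8.93e-18 from edgeR). PPP1R15A, also called GADD34, which directs a phosphatase to the translation factor eIF2, was at 32.1 and 24.3 CPM in NC and at 78.7 and 78.4 CPM at H1 (1.46, SE 0.15, adjusted p = 1.20e-07). RGS2, which shortens signalling by G proteins, rose from 4.06 and 4.69 CPM to 15.1 and 16.2 CPM (1.84, SE 0.29). Transcripts of 2 zinc finger proteins that speed the decay of AU-rich messenger RNAs were higher, ZFP36L2 by 0.59 (SE 0.10) and ZFP36 by 1.98 (SE 0.42). ZFP36 rested on a low level of 3.25 and 1.56 CPM in NC and lost its call without NC replicate 2 (1.60, adjusted p = 0.054) or H1 replicate 2 (1.67, adjusted p = 0.0749).

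ERRFI1, an inhibitor of the EGF receptor, was higher by 0.68 (SE 0.13). SGK1, a short-lived kinase, was higher by 1.09 (SE 0.27), a call lost without NC replicate 2 (0.97) or H1 replicate 2 (0.89). NFKBIA, the inhibitor of NF-kB, was barely past the threshold at 0.63 (SE 0.19, adjusted p = 0.0492 from edgeR) and lost its call without NC replicate 1 (0.58), NC replicate 2 (0.69) or H1 replicate 1 (0.43). The member that fell was TRIB1, a pseudokinase, by 0.64 (SE 0.17), which was lost without NC replicate 1 (-0.60), NC replicate 2 (-0.66) or H1 replicate 2 (-0.42). Without NC replicate 2 the count of higher members was 6, and it was between 7 and 9 without 1 of the others. Of 8 tested NF-kB targets and cytokines, NFKBIA alone passed, and the list had a median of 0.09.

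**Figure D2:**
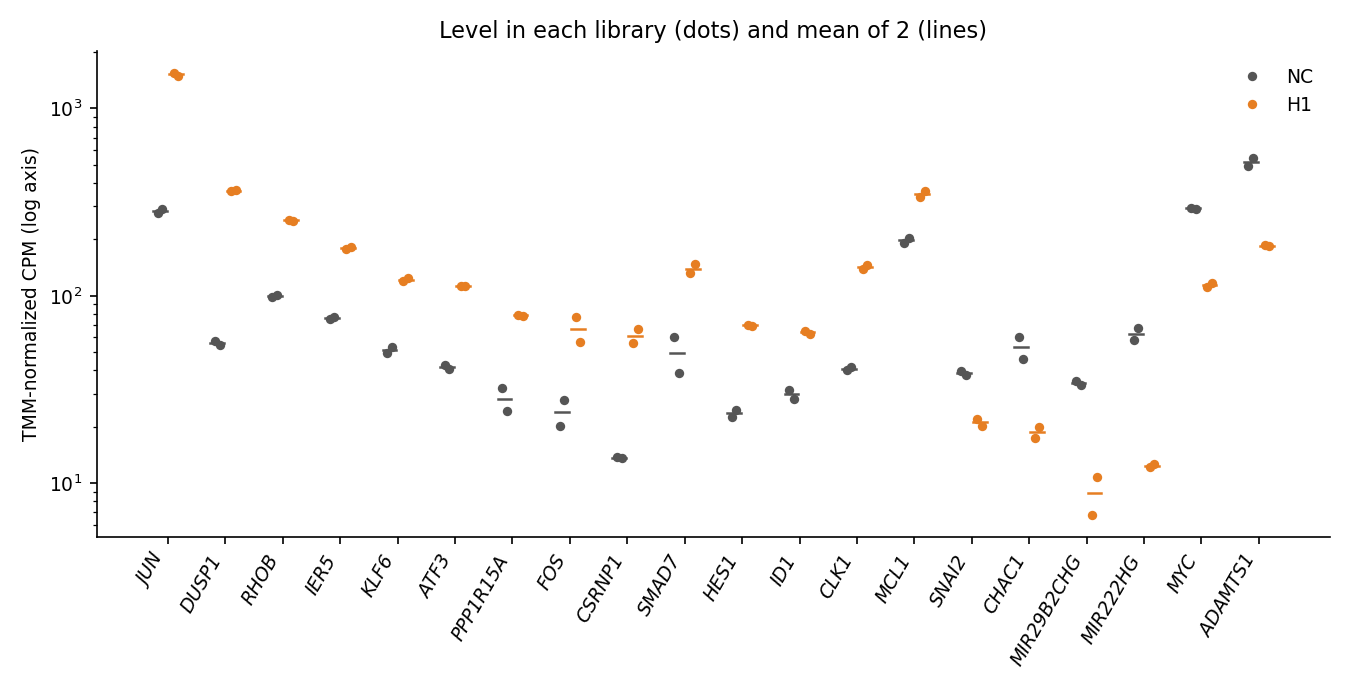
Level of 20 transcripts in TMM-normalized CPM (log axis) in each NC library (grey dots) and H1 library (orange dots), with the mean of each group as a line. From JUN to MCL1 both heated libraries lie above both controls, and from SNAI2 to ADAMTS1 both lie below.

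Promoter sequence was looked at where genes had moved together. RefSeq (GRCh38.p14) promoters from 250 bases before to 50 after the start were matched by symbol to 11274 of the tested genes. A heat shock element of 3 alternating units was searched as GAANNTTCNNGAA or its complement strand, TTCNNGAANNTTC. It was found in 0.487% of all promoters in the table, in 0.337% of those of tested genes, in 6 of 26 promoters of chaperone genes that rose and in 6 of 466 promoters (1.29%) of other genes that rose. Among genes that fell it was in 2 of 279 (0.717%). None of the 12 promoters matched to the 20 largest rises held it. The palindrome TGACGTCA, the cyclic AMP response element bound by CREB and ATF factors, was in 18 of the 466 (3.86%), 13 of 279 (4.66%) of those that fell and 3.25% of all tested. The AP-1 site TGANTCA was in 20 (4.29%), 6 (2.15%) and 4.28%, and the CArG box bound by SRF in 6 (1.29%), 3 (1.08%) and 1.02%. All searches covered both strands, as each motif reads as itself or as its partner on the other strand. The matches describe letters in this window and no binding.

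Since the naming rule left no promoter to print, the following 6 were chosen after the values were seen, to show the elements in genes of different classes that rose. Each runs 5′ to 3′ on the strand of its gene, with up to 24 bases on each side and each match in capitals. In DUSP1 (chr5:172771289-172771344, minus strand) the cyclic AMP response element starts 125 bases before the transcription start, and in PPP1R15A (chr19:48872339-48872394, plus strand) 58 bases before it. In EGR1 (chr5:138465350-138465407, plus strand) 2 CArG boxes start 105 and 83 bases before it, and in ACTA1, skeletal actin (chr1:229434158-229434215, minus strand), 1 starts 97 bases before it. ABHD3, a phospholipase (chr18:21704883-21704943, minus strand), and PGAM5, a mitochondrial phosphatase (chr12:132710592-132710628, plus strand), hold the heat shock element, 145 bases before the start and at the edge of the window.
DUSP1: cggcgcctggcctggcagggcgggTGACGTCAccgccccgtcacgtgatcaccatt
PPP1R15A: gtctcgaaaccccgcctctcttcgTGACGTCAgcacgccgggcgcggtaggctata
EGR1: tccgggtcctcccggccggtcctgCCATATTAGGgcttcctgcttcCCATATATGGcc
ACTA1: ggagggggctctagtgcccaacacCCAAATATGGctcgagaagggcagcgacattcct
ABHD3: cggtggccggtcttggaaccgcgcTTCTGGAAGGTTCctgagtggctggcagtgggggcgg
PGAM5: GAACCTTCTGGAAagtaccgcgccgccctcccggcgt
ABHD3 was higher by 0.79 (SE 0.14) and PGAM5 by 0.42 (SE 0.09, and 0.39 without H1 replicate 1, where its call was lost). ACTA1, at 3.38 (SE 0.69), was at 0.783 CPM in NC on average, and its call was lost without NC replicate 1 (2.25).

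Short-lived targets of developmental signalling moved in both directions. Of 30 tested targets of BMP, TGF-beta, Notch and Wnt signalling, 7 were higher (23.3%) and 4 lower (13.3%), with a median of -0.03. Over all genes the shares were 4.29% and 2.35%. HES1, the repressor through which Notch acts, was at 22.5 and 24.5 CPM in NC and at 70.2 and 69.1 CPM at H1 (1.57, SE 0.14, adjusted p = 1.04e-08 from edgeR), whereas its relative HES4 fell from 159 and 187 CPM to 108 and 94.6 CPM (-0.77, SE 0.11, adjusted p = 4.71e-05). SMAD7, the inhibitor of the TGF-beta pathway, rose from 60.1 and 38.6 CPM to 132 and 147 CPM (1.48, SE 0.13), and SMAD6, which inhibits BMP signalling, rose by 0.38 (SE 0.08). The BMP pseudoreceptor BAMBI rose by 0.95 (SE 0.17).

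The ID proteins, which block the binding of basic helix-loop-helix factors to DNA, were split. ID1 rose from 31.5 and 28.2 CPM to 65.2 and 62.7 CPM (1.09, SE 0.15) and ID3 by 0.63 (SE 0.09), while ID4 fell by 0.45 (SE 0.09). ID2 was lower by 0.28 (SE 0.09, adjusted p = 0.047 from edgeR), a call kept by 3 of 16 alternatives at the same threshold and lost without NC replicate 2 (-0.17), H1 replicate 1 (-0.28) or H1 replicate 2 (-0.25). SNAI2, a repressor of epithelial genes, fell from 39.8 and 37.6 CPM to 22.1 and 20.2 CPM (-0.87, SE 0.16).

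Of 16 antiproliferative and CDK inhibitor genes, 4 were higher and none lower by edgeR (at an unadjusted p under 0.05, 6 higher and 1 lower), with a median of 0.23. The share higher by edgeR was 25%, against 4.29% of all genes. GADD45B, a stress sensor that activates p38, rose from 11 and 18.8 CPM to 40.1 and 36.3 CPM (1.39, SE 0.20). TOB2, which joins messenger RNAs to the deadenylase, rose by 0.66 (SE 0.09). CDKN1A, the p21 inhibitor of cyclin-dependent kinases, was higher by 0.63 (SE 0.17, adjusted p = 0.0208), a call lost without any 1 of the 4 libraries (0.57 to 0.69) and by DESeq2 (adjusted p = 0.0848). The count of the list was 2 without NC replicate 2 or H1 replicate 2 and 3 without either of the others. Of 25 tested p53 targets, with a median of -0.02, 1 was higher and 1 lower (4% each, against 4.29% and 2.35% of all genes). CDKN1A was higher and SESN2, an inhibitor of mTORC1, was lower at -0.52, and DESeq2 called neither. The SESN2 call was lost without H1 replicate 1 (-0.48) or H1 replicate 2 (-0.52). In the BCL2 family, 17.65% of the tested genes were higher, against 4.29% of all genes. The median of this list was -0.10, and 7 of the 17 had a log2 fold change above 0. MCL1, a short-lived survival protein, rose from 192 and 204 CPM to 338 and 361 CPM (0.82, SE 0.08, adjusted p = 1.28e-08 from edgeR), and the BH3-only death proteins BCL2L11 (0.69, SE 0.12) and HRK (0.77, SE 0.15) rose as well. These were 3 of 17 tested, a number that did not change with any 1 library left out.

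**Figure D3:**
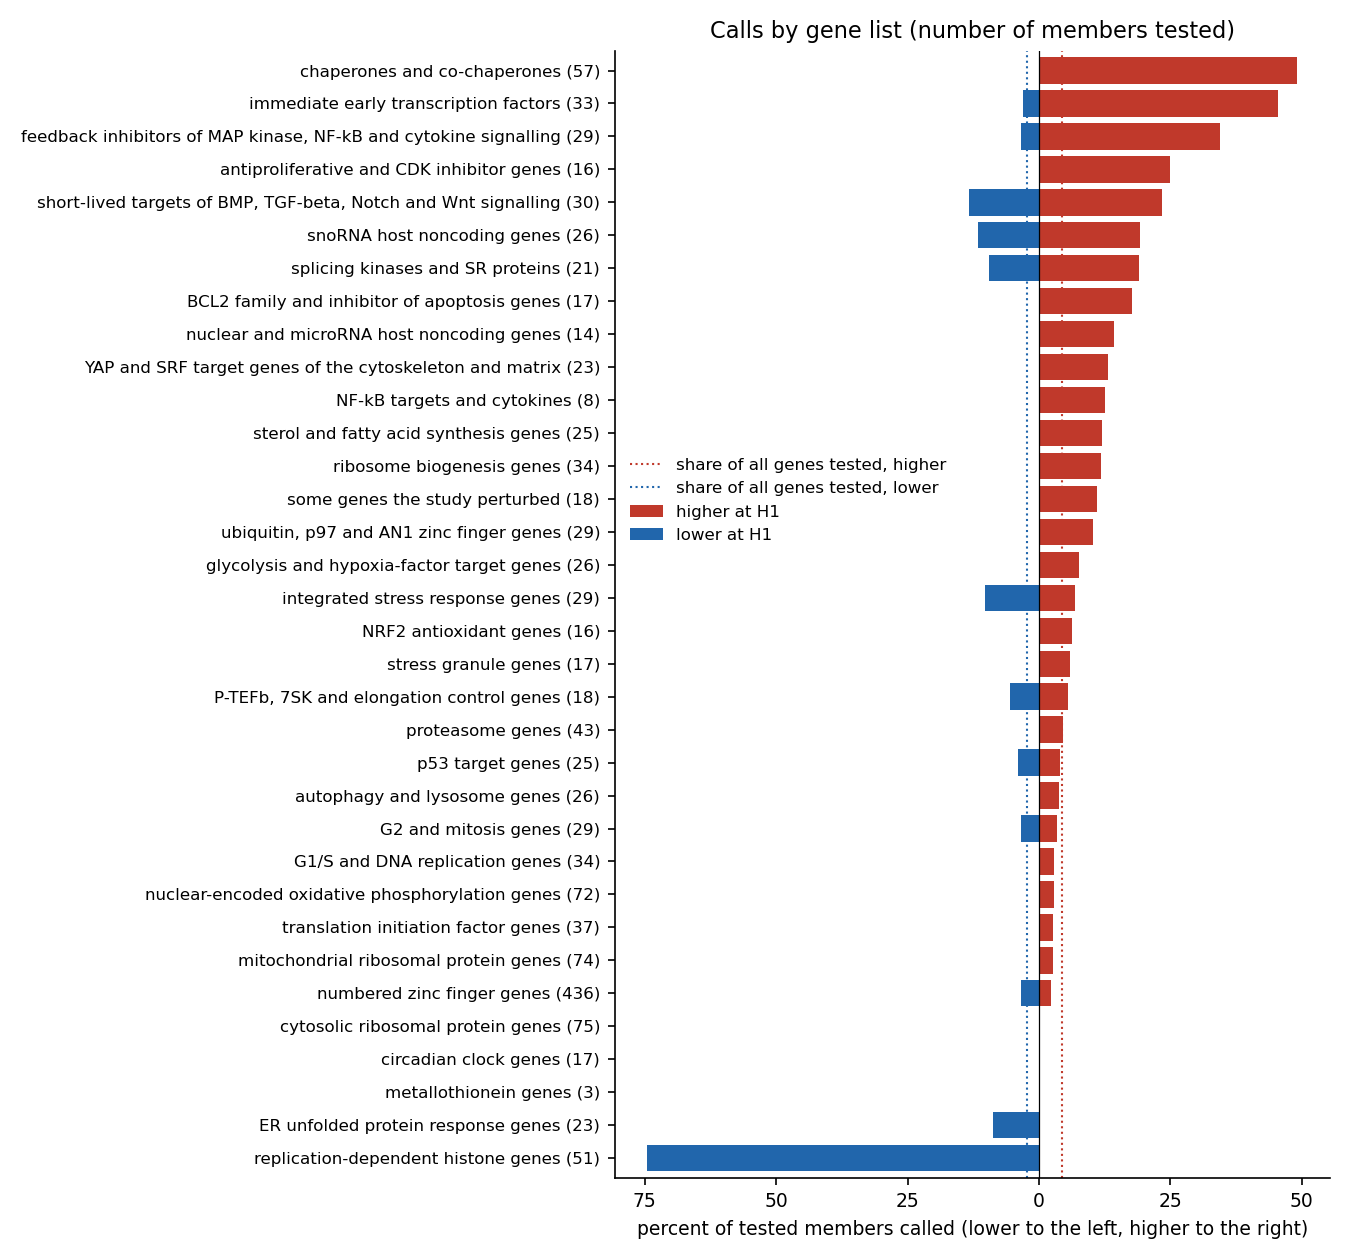
Percent of the tested members of each of 34 gene lists called higher (red, right) or lower (blue, left) at H1, with the number tested in brackets and dotted lines at the shares of all genes (4.29% and 2.35%). Chaperones and immediate early factors have the highest shares of rises, and replication-dependent histone genes have the highest share of falls, with 38 of 51 lower.

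The branches of the stress response that act through eIF2 and the endoplasmic reticulum held a small number of calls. Of 29 tested genes of the integrated stress response, 2 were higher, ATF3 and PPP1R15A, and 3 were lower, with a median of -0.13. These were 6.90% and 10.3% of the list, against 4.29% and 2.35% of all genes. ATF4, the master factor of this response, had a log2 fold change of -0.02 (adjusted p = 0.936). CHAC1, a glutathione-degrading enzyme induced by ATF4, was at 60.5 and 45.9 CPM in NC and at 17.4 and 19.9 CPM at H1 (-1.52, SE 0.32, adjusted p = 0.0029 from edgeR), but the call was lost by DESeq2 (adjusted p = 0.50) and without NC replicate 1 (-1.29, adjusted p = 0.0651). DDIT4, an inhibitor of mTORC1, was lower by 0.57 on the log2 scale (SE 0.13) and SESN2, another, by 0.52 (SE 0.12). The DDIT4 call was lost without NC replicate 2 (-0.50), H1 replicate 1 (-0.53) or H1 replicate 2 (-0.57) and the SESN2 call without H1 replicate 1 (-0.48) or 2 (-0.52), so that 1 member of the list was lower without either H1 library. DESeq2 called neither (adjusted p = 0.323 and 0.231), and thus no member of the list lower.

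Of 23 tested genes of the unfolded protein response of the endoplasmic reticulum, none was higher by edgeR or at an unadjusted p under 0.05, at which 4 were lower. XBP1 (-0.32, SE 0.09) and HERPUD1 (-0.29, SE 0.09) were lower (8.70% of the list, against 2.35% of all genes), and DESeq2 called neither. XBP1 lost its call without NC replicate 2 (-0.25), H1 replicate 1 (-0.30) or H1 replicate 2 (-0.31), and HERPUD1 kept its call in 2 of 16 alternatives and lost it without any 1 library (-0.27 to -0.28). HSPA5, the chaperone of that compartment, was at a log2 fold change of 0.07 (adjusted p = 0.673). In the antioxidant list driven by NRF2, 1 of 16 tested genes was higher, MAFG (0.47, SE 0.13), a call lost without NC replicate 2 (0.36) or H1 replicate 2 (0.33). None of the 3 metallothionein genes with enough counts passed in either direction, and none was under an unadjusted p of 0.05.

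A small number of protein degradation genes passed beside ZFAND2A. The shares higher were 10.3% in the list that holds ZFAND2A and 4.65% in the proteasome list, against 4.29% of all genes. Of 29 genes of ubiquitin, p97 and AN1 zinc finger proteins, 3 were higher, with VCP, the p97 unfoldase, at 308 and 290 CPM in NC and 370 and 387 CPM at H1 (0.34, SE 0.07) and UBB, a polyubiquitin gene, at 0.29 (SE 0.08). VCP lost its call without H1 replicate 2 (0.32, adjusted p = 0.0706) and UBB without NC replicate 1 (0.21) or either H1 library (0.26 and 0.35), and ZFAND2A was then the 1 call left without H1 replicate 2. Of 43 proteasome genes, the regulatory subunits PSMD6 (0.43, SE 0.09) and PSMD12 (0.35, SE 0.09) were higher and none was lower. The median of the list was 0.05, and PSMD6 lost its call without H1 replicate 1 (0.39) and PSMD12 without NC replicate 2 (0.33) or H1 replicate 2 (0.29). Of 26 autophagy and lysosome genes, ATG16L1, needed to lipidate LC3, rose from 35.7 and 27.6 CPM to 63.9 and 59.5 CPM (0.95, SE 0.14).

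Some genes that act on RNA processing passed in each direction. The kinase CLK1, which phosphorylates SR proteins, was at 40.0 and 41.7 CPM in NC and at 139 and 146 CPM at H1 (1.80, SE 0.12, adjusted p = 7.84e-12 from edgeR). Its relative CLK3 rose by 0.81 (SE 0.11), and the splicing regulators TRA2B (0.89, SE 0.07) and SRSF4 (0.57, SE 0.09) rose with them. CIRBP, the RNA-binding protein known for its rise in the cold, fell from 252 and 276 CPM to 164 and 186 CPM (-0.59, SE 0.08, adjusted p = 2.26e-05), and SRSF11 was lower by 0.40 (SE 0.08). With 21 tested in the list, 4 were higher (19.05%) and 2 lower (9.52%), against 4.29% and 2.35% of all genes. SRSF3 and SRSF10 had log2 fold changes of -0.21 and 0.05 and did not pass. SRSF11 lost its call without NC replicate 2 (-0.27) or H1 replicate 2 (-0.34), which left 1 lower member. In the list of P-TEFb, 7SK and elongation factors, 1 of 18 was higher and 1 lower, ELL, which keeps RNA polymerase II moving, by -0.68 (SE 0.14).

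Apart from ribosome biogenesis, the lists of ribosome and translation genes held shares of calls below those of all genes (4.29% higher and 2.35% lower). None of 75 cytosolic ribosomal protein genes passed in either direction by edgeR, at an unadjusted p under 0.05 there was 1 higher and 1 lower, and the median was 0.01. Of 74 mitochondrial ribosomal protein genes, MRPL18, which also has a cytosolic form made under heat stress, rose from 43.5 and 47.5 CPM to 139.8 and 136.5 CPM (1.61, SE 0.11, adjusted p = 2.70e-11) and MRPS6 from 11.4 and 15.1 CPM to 37.7 and 35.8 CPM (1.49, SE 0.20). These were the only calls in that list, which had a median of -0.08. Of 34 genes of ribosome biogenesis, 4 were higher (11.8%). UBTF, the architectural factor of ribosomal DNA, did so most firmly, from 169 and 163 CPM to 258 and 263 CPM (0.65, SE 0.08). Without H1 replicate 2, UBTF was the list's 1 remaining call. Of 37 initiation factor genes, EIF5, which triggers GTP hydrolysis on the scanning ribosome, rose from 169 and 165 CPM to 304 and 303 CPM (0.86, SE 0.09, adjusted p = 5.16e-08) and no other passed. Of 17 stress granule genes, FXR1 was higher (0.37, SE 0.09), a call lost without NC replicate 1 (0.32) or H1 replicate 2 (0.30).

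The metabolic lists held a small number of calls. Of 25 tested sterol and fatty acid synthesis genes, 3 were higher by edgeR (12%, against 4.29% of all genes) and none lower. DESeq2 called 1 gene of that list higher. Of 26 genes of glycolysis and hypoxia, VEGFA (0.39, SE 0.10) and PFKFB4 (0.80, SE 0.20) were higher (7.69%). Both calls were lost without NC replicate 2 (0.27 and 0.68), H1 replicate 1 (0.42 and 0.76) or H1 replicate 2 (0.39 and 0.87). Of 72 nuclear-encoded oxidative phosphorylation genes, 2 were higher, SDHA (0.65, SE 0.19) and NDUFA10 (0.36, SE 0.09), and both calls were lost without NC replicate 2 (0.47 and 0.33) or H1 replicate 2 (0.61 and 0.35), and that of SDHA also without H1 replicate 1 (0.71). No gene of the circadian clock passed among 17 tested by edgeR, and at an unadjusted p under 0.05 there was 1 higher and 2 lower. Of 23 YAP and SRF targets, CCN1, a matricellular protein of the immediate early class, rose from 13 and 15.1 CPM to 43.1 and 51.0 CPM (1.75, SE 0.20). ANKRD1 and AMOTL2 (0.89, SE 0.19) were the other calls, and AMOTL2 was lost without NC replicate 1 (0.75, adjusted p = 0.0829). ANKRD1, an ankyrin repeat protein of stressed muscle with at most 20 counts in a library (3.58, SE 0.82), was lost without NC replicate 2 (2.81) or H1 replicate 2 (3.34). In a list of some of the genes that the study perturbed, 18 were tested, and DNAJB1 and RANBP2, a nucleoporin (0.26, SE 0.08), were higher, and RANBP2 was lost without NC replicate 1 (0.20), H1 replicate 1 (0.27) or H1 replicate 2 (0.28).

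Replication-dependent histone genes were the largest group of transcripts that fell. Their messenger RNAs end in a stem-loop instead of a poly(A) tail, are made in S phase and decay quickly when DNA synthesis stops. Libraries from total RNA hold them, and of 51 tested 38 were lower at H1 and none higher by edgeR, with 43 lower and none higher at an unadjusted p under 0.05. These 38 were 74.5% of the list, against 2.35% of all genes. DESeq2 called 34 lower. The median log2 fold change was -0.51. Summed over the 51 genes, the level was 13302 and 14465 CPM in NC and 9504 and 9618 CPM at H1. The falls covered all classes, with 3 of 4 linker histone genes, 10 of 13 for H2A, 11 of 13 for H2B, 6 of 9 for H3 and 8 of 12 for H4. The linker histone genes had the lowest median at -0.76, and H4 genes the least negative at -0.38.

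H1-4, which encodes a linker histone (chromosome 6, 26156329 to 26157115, plus strand), was at 1460 and 1612 CPM in NC and at 879 and 834 CPM at H1 (-0.84, SE 0.07, adjusted p = 1.35e-09 from edgeR). H1-3 fell from 279 and 289 CPM to 145 and 139 CPM (-0.999, SE 0.08), and the core histone gene H2AC12 from 296 and 346 CPM to 198 and 187 CPM (-0.74, SE 0.08). H3C2, one of the more abundant, fell from 940 and 1090 CPM to 709 and 711 CPM (-0.51, SE 0.07). Copies of one histone differ at few bases, and reads that aligned to several genes were not counted, so the values of single copies are uncertain. The number lower was 23 without H1 replicate 1, 28 without H1 replicate 2, 29 without NC replicate 2 and 37 without NC replicate 1. For the other cell cycle lists, the shares called lay near those of all genes (4.29% higher and 2.35% lower). They were 2.94% and 0% for G1/S and DNA replication, and 3.45% each way for G2 and mitosis. Of 34 genes of G1/S and DNA replication, CCNE1 was higher (0.75, SE 0.18) and none lower by edgeR, with a median of 0.00 and, at an unadjusted p under 0.05, 4 higher and 3 lower. CCNE1 lost its call without NC replicate 2 (0.71) or H1 replicate 1 (0.61). Of 29 genes of G2 and mitosis, KIF23, a kinesin of the cytokinetic midzone, fell (-0.58, SE 0.10) and CKS2 was higher (0.47, SE 0.13), the latter lost without any 1 library (0.46 to 0.50).

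**Figure D4:**
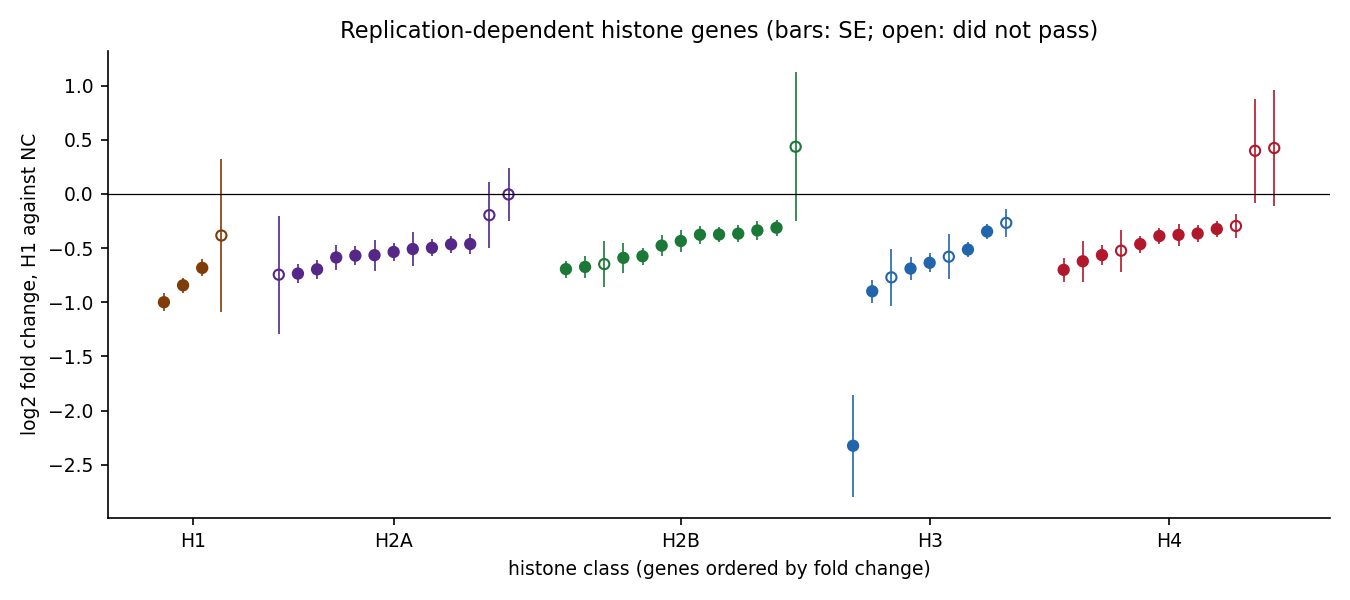
Log2 fold change at H1 against NC (vertical axis) of 51 replication-dependent histone genes by histone class, with bars for SE and open circles for the 13 genes that did not pass. All 38 filled circles lie below 0, and H3C6 at -2.32, which rests on 7.31 and 8.87 CPM in NC, lost its call without H1 replicate 2 (-1.88).

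The 20 largest falls at a mean level of 3 or more in log2 CPM ran from -2.60 to -1.21 on the log2 scale. Of these 13 were of protein-coding genes and 12 kept their call in every alternative at the same threshold. ADAMTS1, a secreted metalloprotease with an unstable messenger RNA (chromosome 21, 26835755 to 26845409, minus strand), had the highest level of these 12. It was at 494 and 543 CPM in NC and at 186 and 185 CPM at H1 (-1.48, SE 0.08, adjusted p = 1.31e-13 from edgeR). MARCHF1, a membrane ubiquitin ligase gene, fell from 20.7 and 21.9 CPM to 3.21 and 4.19 CPM (-2.52, SE 0.26). HOXA3 fell from 27.2 and 25.3 CPM to 7.48 and 10.1 CPM (-1.58, SE 0.25) and HOXD9 from 27.2 and 25.04 CPM to 7.83 and 12.2 CPM (-1.38, SE 0.22). CCDC71 (-1.47, SE 0.20) and PARS2, a mitochondrial prolyl-tRNA synthetase (-1.31, SE 0.25), were lower too.

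Transcripts that carry microRNAs were on both sides. MIR222HG, the precursor of miR-221 and miR-222 (X chromosome, 45745211 to 45770274, minus strand), was at 58.3 and 67.3 CPM in NC and at 12.1 and 12.6 CPM at H1 (-2.34, SE 0.16, adjusted p = 2.03e-11 from edgeR). MIR29B2CHG, which holds a miR-29 pair, fell from 35.1 and 33.4 CPM to 6.77 and 10.8 CPM (-1.96, SE 0.21). MIR23AHG, the precursor of the miR-23a cluster, rose from 9.75 and 6.78 CPM to 24.9 and 23.4 CPM (1.52, SE 0.25). Mature microRNAs are too short for these libraries, and their levels were not measured. TSIX fell from 113 and 126 CPM to 20.3 and 19.0 CPM (-2.60, SE 0.12). TSIX overlaps XIST on the other strand, and XIST was lower too (-0.24, adjusted p = 2.26e-04 from edgeR). Counting used no strand and left out reads on exons of both genes. Reads counted for TSIX could thus come from either strand, which was not tested. A list of nuclear and microRNA host transcripts, which does not hold MIR222HG, MIR29B2CHG or TSIX, had 14 tested members. Of these, MIR23AHG and TUG1 (0.30, SE 0.08) were higher, 14.3% of the list against 4.29% of all genes. MALAT1 and NEAT1 had log2 fold changes of -0.03 and -0.29 and did not pass. TUG1 lost its call without NC replicate 2 (0.26), H1 replicate 1 (0.32) or H1 replicate 2 (0.31).

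Noncoding hosts of small nucleolar RNAs, whose spliced exons decay quickly, moved in both directions. Of those tested, 19.2% were higher and 11.5% lower, against 4.29% and 2.35% of all genes. Of 26 tested, 5 were higher, SNHG10 (1.08, SE 0.20), SNHG15 (0.90, SE 0.11), SNHG17 (0.89, SE 0.09), SNHG12 (0.79, SE 0.14) and SNHG20 (0.78, SE 0.22), and 3 were lower, SNHG26 (-1.05, SE 0.30), SNHG3 (-0.55, SE 0.10) and SNHG4 (-0.53, SE 0.15). SNHG17 was at 194 and 164 CPM in NC and at 324 and 341 CPM at H1, and SNHG3 at 127.5 and 110.3 CPM in NC and at 84.0 and 78.9 CPM at H1. SNHG20 lost its call without NC replicate 2 (0.57), H1 replicate 1 (0.70) or H1 replicate 2 (0.89). SNHG26 and SNHG4 lost theirs without NC replicate 1 (-0.63 and -0.34), H1 replicate 1 (-1.28 and -0.47) or H1 replicate 2 (-0.83 and -0.56), and DESeq2 called none of these 3. GAS5 and SNHG1, the best known of the class, had log2 fold changes of -0.04 and -0.14 and did not pass.

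The genes that changed were spread over gene types. Of 12965 protein-coding genes tested, 562 (4.33%) were higher and 311 (2.40%) lower, and of the 4321 others 179 (4.14%) and 96 (2.22%). Genes annotated as lincRNA were called higher and lower about equally often, with 29 (5.15%) and 28 (4.97%) of 563. Antisense genes were called higher 42 times (4.48%) and lower 13 times (1.39%) of 938. The shares of rises were highest among the 211 genes absent from GENCODE 29 (12.8%) and the 189 loci marked there as to be experimentally checked (TEC, 8.99%), and lowest among the 412 small or structured RNA genes (2.43%) and the 1605 pseudogenes (2.55%). These types lay at lower levels, with a median average log2 CPM of 1.67 and 1.82 for the former pair against 5.11 for protein-coding genes.

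Some noncoding genes that rose lay beside a protein-coding gene that rose. Of the 152 that GENCODE 29 types as other than protein-coding, 36 (23.7%) overlapped such a gene or lay within 10 kb of one, against 4.72% of the 3958 typed noncoding genes that were not called higher. For falls the shares were 6 of 91 (6.59%) and 2.36%. ENSG00000280385, a TEC locus (chromosome 11, 90193614 to 90198120, plus strand), rose from 37.4 and 36.0 CPM to 221 and 248 CPM (2.67, SE 0.10, adjusted p = 4.69e-17 from edgeR). It lies 0.72 kb past NAALAD2, a peptidase gene on the same strand that rose by 1.91 (SE 0.18), and 2.31 kb from the chaperone gene CHORDC1 on the other strand. ENSG00000261668, an antisense gene (2.76, SE 0.30), overlaps the chaperone gene HSPA4L (1.68). ENSG00000284669 (2.33, SE 0.31) overlaps CSRNP1 on the other strand, and ENSG00000286242, which has no type in GENCODE 29 (1.86, SE 0.30), overlaps UBE2D3 (0.52). Since counting used no strand, part of such reads may belong to the partner gene, which was not tested.

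Other noncoding genes changed while their coding neighbours did not pass. THUMPD3-AS1 rose from 49.96 and 55.8 CPM to 144 and 145 CPM (1.46, SE 0.11, adjusted p = 2.17e-10 from edgeR), and THUMPD3 and SETD5, which it overlaps, were at 0.35 and 0.22 and did not pass. GABPB1-AS1 fell from 86.7 and 90.5 CPM to 41.3 and 45.8 CPM (-1.02, SE 0.12, adjusted p = 8.84e-07), with GABPB1 at 0.40, which did not pass. BAALC-AS1 was lower by 1.13 on the log2 scale (SE 0.19). Among pseudogenes, RNF216P1 rose by 1.88 (SE 0.19). HSPA7, a near copy of HSPA6, had no count in NC and 29 and 37 at H1, at least 16.97-fold higher when the group in NC is set to the 3 counts that a count of 0 allows. Reads of HSPA6 and HSPA7 can be hard to assign, and the value of the pseudogene is uncertain.

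The share of genes called in each direction was set beside the number of exons and the span, as a description with no test. Leaving out the histone list, 8.54% of 281 protein-coding genes with 1 exon block were higher and 6.05% lower, against 6.51% and 3.28% of 2290 genes with 2 to 5 blocks and 3.76% and 1.76% of 10344 with more. By span the shares higher were 7.76% under 5 kb, 4.90% from 5 to 20 kb, 4.22% from 20 to 100 kb and 2.78% over 100 kb, and the shares lower 4.09%, 2.33%, 2.31% and 0.794%. The level moved with the number of blocks, with a median average log2 CPM of 3.80 at 1 block, 4.41 at 2 to 5 and 5.28 at more, and its part in the shares was not tested. By level in NC per exon length, again without the histone list, 5.37% of genes in the lowest of 4 classes were higher and 0.988% lower, against 3.72% and 2.88% in the highest. With the histone list, 3.95% of the highest class were lower. Of 436 numbered zinc finger genes, which include many short-lived transcripts, 10 were higher (2.29%) and 15 lower (3.44%), with a median of -0.06. These shares lay near those of all genes (4.29% and 2.35%). The 15 fell to between 3 and 7 with any 1 library left out and the 10 to 5 or 6.

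**Figure D5:**
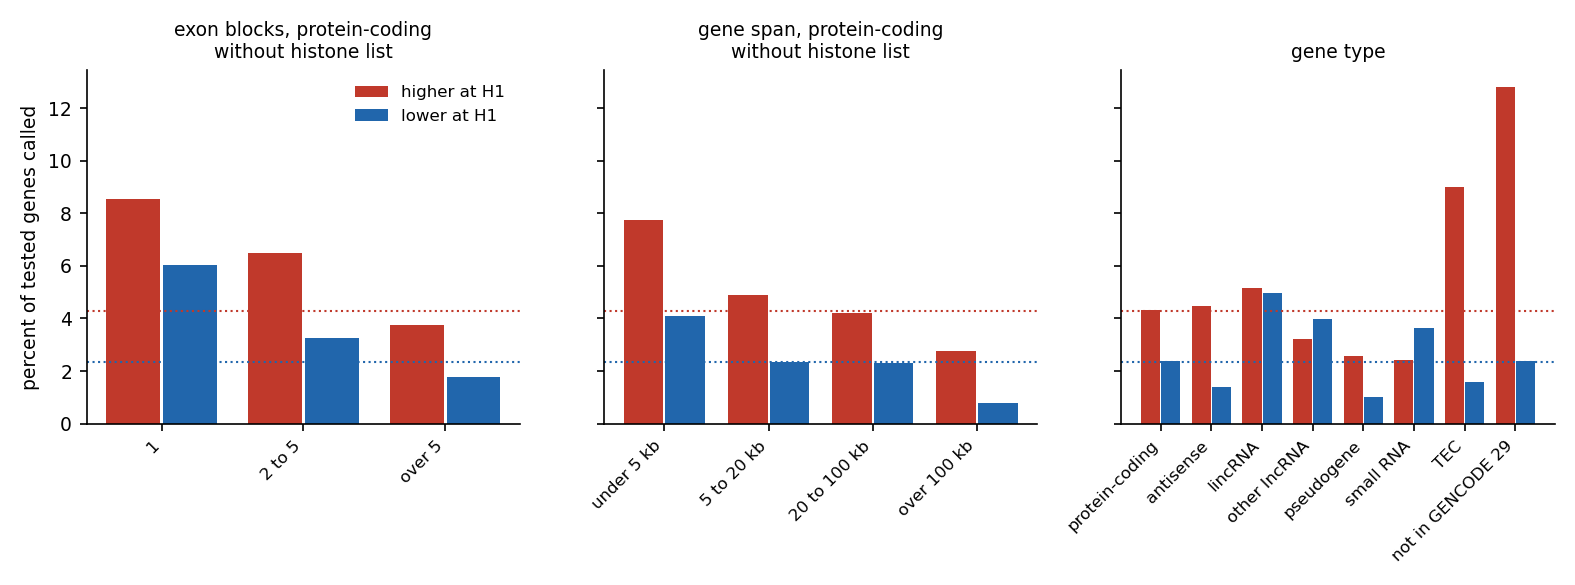
Percent of tested genes called higher (red) or lower (blue) at H1 by number of exon blocks and by gene span, both for protein-coding genes without the histone list, and by gene type, with dotted lines at the shares of all genes (4.29% and 2.35%). Shares fall from 8.54% to 3.76% higher and from 6.05% to 1.76% lower as exon blocks increase.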

How the data were processed

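RNA-seq of HEK293T cells was compared between H1 (43 °C for 1 h, 2 libraries) and NC (untreated, 2 libraries), grouped by the sample labels. The authors deposited 1 table of raw counts per gene, and their file header and processing notes name FastQC 0.11.8, cutadapt 4.1, HISAT2 2.2.1, featureCounts 2.0.2 and DESeq2 1.38.3 on Ensembl 104 (GRCh38). Each read of a pair was counted without strand on exons, and reads with several alignments or genes were left out, which lowers counts of near-identical copies. All 37 mitochondrially encoded genes were at 0 in every library.

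Counts of all 9 libraries were fitted together with edgeR 4.0.16 in R 4.3.3 (quasi-likelihood test, TMM scaling, filterByExpr on the NC and H1 libraries with minimum count 10 and total 15), which left 17286 of 60664 genes. P-values were adjusted by Benjamini-Hochberg over all of them. The SE is the size of the log2 fold change divided by the square root of F, and CPM are TMM-normalized. The common biological coefficient of variation was 0.0874. Gene types came from GENCODE 29, which held 96.3% of the identifiers, and names from a separate table that held 99.7%. The fit was tested on simulated data. Tables and figures were made in Python 3.11.15 with pandas 2.3.3 and matplotlib 3.10.9.

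The 34 gene lists, the tests and the alternatives were chosen with earlier results of these data known. Named are, outside the chaperones, the 20 largest changes per direction (adjusted p under 0.05, average log2 CPM of at least 3, libraries of the groups not overlapping), list members that passed, the 4 highest members of each list, and the 4 smallest adjusted p per noncoding gene type and direction. The rule also allowed promoters of genes of the first kind that rose and held a heat shock element, of which there were none among the 12 with a promoter in the reference table. Genes in the last part of the closing section, some of which the naming rule also covers, and the printed promoters were chosen after their values were seen. Alternatives were other scalings, filters and library sets, DESeq2 1.42.0, the replicate number as a block, a fold threshold and each library left out. The number of counts limits the precision, and the values cover 1 cell line. Some results that the naming rule covers are not reported here.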

Additional observations from a re-analysis of the deposited data

How the results depend on the processing

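Between 590 and 877 genes were higher, and between 281 and 419 lower, under RLE, upper-quartile or library-size scaling, under the other filters and library sets, with protein-coding genes only and with halved counts, each within 1.5 times of 741 and 407. The run on protein-coding genes only called 695 higher and 351 lower, whereas the main run called 562 and 311 protein-coding genes. With the replicate block, 697 were higher and 382 lower. The labels number the replicates, and deviations of same-numbered NC and H1 libraries correlated at 0.0247 over 11677 genes. This rests on the difference between the 2 libraries of each group. It cannot tell whether same-numbered libraries shared a culture or a batch. DESeq2 called 464 higher and 184 lower, and a test against a log2 fold change of 1 left 74 and 11. With 1 library left out, 370 to 536 genes were higher and 150 to 254 lower. The cause was not tested for DESeq2; the test against 1 asks for a larger change, and the last used fewer libraries. The scalings moved the share of calls that were higher from 64.5% to between 63.4% and 66.1%, and the median over all genes stayed within -0.02 and 0.00. Of 142 genes named in the text that passed, 97 were called in every alternative at the same threshold, 44 lost their call with at least 1 library left out, and none reversed. Of 68 list counts, 34 stayed within 1.5 times in every such alternative. The 2 libraries per group and their depth limit calls on genes with few counts.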

Other observations

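The following genes and groups were picked after their values had been seen, are in no list, and carry no test of a group. GATA2 was at 93.8 and 84.5 CPM in NC and at 264 and 269.6 CPM at H1 (1.58, SE 0.09, adjusted p = 2.11e-13 from edgeR), and GATA3 rose from 36.1 and 28.7 CPM to 58.9 and 58.7 CPM (0.85, SE 0.14). The homeobox genes EN2 (1.17, SE 0.11) and MSX2 (1.06, SE 0.12) and the T-box gene TBX3 (1.01, SE 0.11) were higher, and all of these calls held in every alternative at the same threshold. JMJD6, a lysyl hydroxylase of splicing factors, rose from 29.7 and 24.8 CPM to 88.0 and 91.8 CPM (1.71, SE 0.13).

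Of 34 HOX genes tested, 6 were lower and 2 higher and the others did not pass, against 2.35% lower and 4.29% higher over all genes. The median was -0.26, and 26 had a log2 fold change below 0. HOXA3 and HOXD9 were the largest falls, at -1.58 and -1.38, and their calls held in every alternative at the same threshold. HOXC9 was at -1.03, lost without NC replicate 1 (-0.79) or H1 replicate 1 (-0.88), and HOXC6, HOXC8 and HOXB3 at -0.81, -0.74 and -0.43 were lost without 3 or 4 of the 4 libraries and by DESeq2. HOXD13 (0.38) and HOXB6 (0.47) were higher but lost without at least 3 of the libraries and by DESeq2.

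Copies of small structured RNAs differed among themselves. Of 15 tested genes for variants of the spliceosomal U1 RNA, 3 were lower, against 2.35% of all genes. RNVU1-27 fell from 46.1 and 39.6 CPM to 16.4 and 17.1 CPM (-1.36, SE 0.18) and RNVU1-15 from 52.4 and 51.6 CPM to 17.1 and 31.8 CPM (-1.09, SE 0.20), whereas RNVU1-7, at 2641 and 2925 CPM in NC, had a log2 fold change of 0.08 (SE 0.08) and did not pass. These copies are nearly alike, and their counts are uncertain. Of 30 nuclear copies of mitochondrial genes, 2 were higher and 1 lower, against 4.29% and 2.35% of all genes. All 37 mitochondrially encoded genes were at 0 in every library. Whether reads of mitochondrial transcripts were counted for these copies was not tested, and their values are uncertain. MTCO1P12 rose from 229 and 165 counts to 634 and 1066 counts (1.74, SE 0.31, adjusted p = 4.74e-04), a call lost by DESeq2 (adjusted p = 0.189). MTND1P9 had 2 and 0 counts in NC and 20 and 16 at H1 (3.67, SE 0.95), a call lost without NC replicate 2 (2.90), H1 replicate 1 (3.50) or H1 replicate 2 (3.86) and by DESeq2, while MTATP6P1 was lower by 0.28 on the log2 scale, a call lost in 10 of 15 alternatives, among them those without NC replicate 2 (-0.19), H1 replicate 1 (-0.26) or H1 replicate 2 (-0.27), and MTND2P28, at -0.35, did not pass. ENSG00000281181, annotated as lincRNA (chromosome 21, 8437629 to 8438551, minus strand), was at 11563 and 4680 CPM in NC and at 4487 and 1542 CPM at H1, and its fall of 1.43 on the log2 scale (SE 0.40) was lost without NC replicate 1 (-0.62), without H1 replicate 2 (-0.84) and by DESeq2.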
